A study of Capra hircus with 6 samples.

Results

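In goat intramuscular preadipocytes, 62 of the 27271 genes in the count files had at least 5 reads in every library treated with siRNA against LIPG and 0 in every control library. The members were chosen by their raw counts alone, as genes with 0 reads in all 3 NC libraries and at least 5 reads in all 3 Si-LIPG libraries, so the difference between the groups is fixed by the choice and is described here without a test. Of the 62 genes, 52 had a gene name in the deposited table and 10 did not. The named genes encode, among others, the calcineurin subunit PPP3CB, the propionate and succinyl-CoA enzymes PCCA and SUCLA2, the lipid droplet protein FITM2, the mannosyltransferase DPY19L1 and the stress factor ATF3. Of the genes with at least 5 reads in every Si-LIPG library, 0.83% (62 of 7468) had 0 reads in every NC library. The mirrored rule, with the groups exchanged, found 0 of 4243 genes (0%).

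The cells were primary preadipocytes, the fat precursor cells lying within muscle, taken from the longissimus dorsi of 3-day-old Jianzhou goats. The control cells received a negative control siRNA (NC, genotype labelled WT, n = 3), the others received siRNA directed at LIPG (Si-LIPG, genotype labelled LIPG Knock down, n = 3), and both groups were induced to differentiate with 50 µmol/L oleic acid for 48 h. LIPG encodes endothelial lipase, a secreted enzyme that cleaves lipoprotein phospholipids, and the study asked how its silencing changes gene expression in these cells. One siRNA represented the silencing. The replicates are described as biological, but no source used here says whether they came from separate animals or cultures, so p-values measure only the spread between these samples, which may be technical. LIPG itself had 0, 2 and 0 reads in NC libraries 1, 2 and 3 and 0, 2 and 2 reads in Si-LIPG libraries 1, 2 and 3. The groups overlapped in LIPG, and silencing could not be checked in these libraries at this depth. The paper reports lower LIPG by RT-qPCR and western blot with the siRNA that it used in later experiments.

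Reads counted on genes numbered 524776 to 703680 in the NC libraries and 864882 to 1051230 in the Si-LIPG libraries, although the NC libraries held more reads in all (42581107 to 52638817 against 36451898 to 48031507). Genes with at least 1 read numbered 8927 to 10603 in NC and 11545 to 12344 in Si-LIPG libraries. NC library 1 stood apart from the other NC libraries on the first principal component of log2 CPM, at -98.1 against -5.50 and -4.00, with the Si-LIPG libraries between 19.1 and 45.4. All 8 preadipocyte and fibroblast markers found in the files were counted, and their summed level was 12251 to 26303 CPM (counts per 1000000 reads counted on genes) in NC and 37702 to 40303 CPM in Si-LIPG libraries. On TMM-adjusted sizes, which set library sizes by the bulk of genes, it was 20157 to 28187 against 29498 to 35553, and the collagen genes COL1A1 and COL1A2 held 83.1% to 87.9% of these reads. Of the adipocyte markers, ADIPOQ was at 0 in every NC library and LEP in all but Si-LIPG library 3, and the 5 markers together had 3 to 11 reads in NC and 8 to 24 in Si-LIPG libraries. The endothelial markers CDH5, KDR and TEK and the leukocyte markers PTPRC and CD3E were at 0 in all 6 libraries. PECAM1, also an endothelial marker, had 4 reads in NC library 2 and 6 in Si-LIPG library 2, and VWF had 1 in Si-LIPG library 2, whereas the leukocyte markers CD14, CD68 and CSF1R were counted in every library. The library protocol marks strand, and 91.6% to 93.7% of all reads fell on no annotated feature. The mitochondrial gene ND6, which lies on the opposite strand to the other 12 protein genes, had 54.2 to 99.3 times their median reads per kb in NC. In Si-LIPG this ratio was 22.6 to 49.8, below every NC library. The part of reads from the opposite strand in the counts of the 62 genes was not tested. The strand that was counted is not given, so every count here is a count assigned to the gene in the files and may hold reads of the opposite strand in place of the gene's own mRNA. In bulk RNA, fewer cells of a type and less RNA per cell cannot be told apart.

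Genes counted in only 1 group of shallow libraries mix RNA that is absent, RNA that is rare and RNA that was missed in sampling. By their known roles the named members range from kinases and phosphatases that pass on signals, through nuclear factors that make and trim RNA and enzymes of the mitochondrion and the endoplasmic reticulum (ER), to proteins of muscle, nerve and immune cells. Preadipocytes use the ER to build lipid droplets from neutral lipid and use the mitochondrion to burn fatty acids, including the propionyl-CoA left from odd-chain acids. 

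The 62 genes together had 620, 759 and 833 reads in Si-LIPG libraries 1, 2 and 3, 2212 in all, and 0 in the NC libraries. Relative to counted reads these sums were 717, 773 and 792 CPM (761 ± 39.2, SD, n = 3). On TMM-adjusted sizes they were 676, 598 and 588, and per 1000000 of all reads 12.9, 20.3 and 22.9 (18.7 ± 5.17, SD, n = 3). The Si-LIPG libraries were thus close to one another per counted read, whereas library 1 was highest on TMM-adjusted sizes and lowest on all reads. Per gene, the median count was 8, 10 and 11, and the counts ranged from 5 to 33, from 5 to 36 and from 5 to 50. The coefficient of variation of CPM over the 3 libraries had a median of 34.0% and ranged from 3.70% to 104%. No gene dominated, since DPY19L1 held 4.48% of the reads and the 12 genes with the most reads held 32.5%. The lowest of the 3 counts was 5 or 6 in 27 genes and at least 10 in 13 genes.

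**Figure D1:**
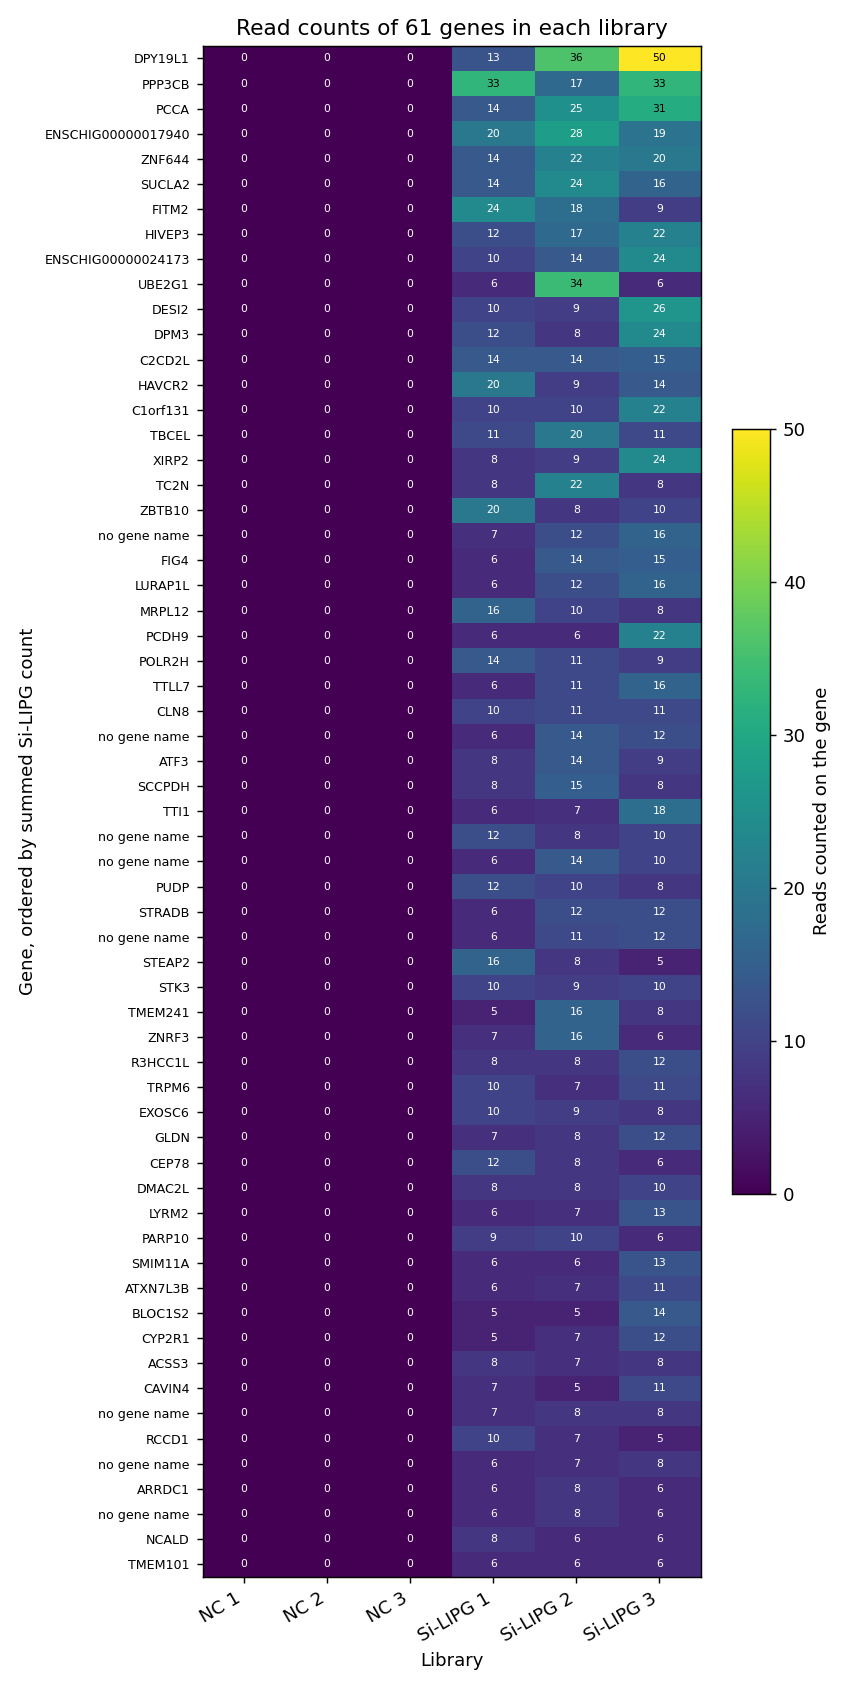
Heat map of the reads counted on 61 of the 62 genes (rows, ordered by summed Si-LIPG count) in the 6 libraries (columns), with colour and printed number both giving the count. The NC columns hold 0 throughout, by the choice of the genes, and the Si-LIPG counts run from 5 to 50 reads.

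The limit of 5 reads has no gap beside it. TMEM101, a transmembrane protein, had the lowest sum with 6, 6 and 6 reads in Si-LIPG libraries 1, 2 and 3. The arrestin domain adaptor ARRDC1 had 6, 8 and 6 reads, as had a gene without a name. Just outside, 47 genes at 0 in NC had 4 reads as their lowest Si-LIPG count, with sums of 12 to 83 (median 20, against 31 inside). Those with the largest sums were held out by Si-LIPG library 1 alone. TMEM70, a factor of ATP synthase assembly, had 4, 41 and 38 reads, TMEM218 had 4, 30 and 24, and TMEM185B had 4, 23 and 22, all with 0 in the NC libraries. Of the 47, library 1 alone held out 16, library 2 alone 5 and library 3 alone 8, and 18 were under 5 reads in more than 1 library.

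The group with the most members was signalling and ubiquitin, with 12 genes and 21.1% of the reads. PPP3CB, the catalytic beta subunit of the calcium-dependent phosphatase calcineurin, had 33, 17 and 33 reads. UBE2G1, a ubiquitin-conjugating enzyme, had 6, 34 and 6 reads, the largest coefficient of variation (104%) of the 62 genes, so its sum of 46 came mostly from Si-LIPG library 2. DESI2, a deSUMOylating isopeptidase, had 10, 9 and 26 reads, and TC2N, which carries tandem C2 domains, had 8, 22 and 8. STK3, the Hippo kinase also called MST2, had 10, 9 and 10 reads. STRADB, a pseudokinase that binds LKB1, had 6, 12 and 12 reads, and ZNRF3, a ligase that removes Wnt receptors, had 7, 16 and 6. Library 2 was thus the high one for UBE2G1, TC2N and ZNRF3, while STK3 was even. LURAP1L, a relative of the adaptor LURAP1, had 6, 12 and 16 reads, and the neuronal calcium sensor NCALD had 8, 6 and 6.

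HAVCR2 encodes TIM-3, an inhibitory receptor known from immune cells, and it had 20, 9 and 14 reads in the Si-LIPG libraries. The 6 leukocyte markers together had 15, 25 and 15 reads in NC and 20, 20 and 29 reads in Si-LIPG libraries, and those ranges overlapped. On TMM-adjusted sizes their summed level was 22.8 to 47.0 in NC and 15.7 to 21.8 in Si-LIPG libraries. The part of leukocytes in the counts of HAVCR2 was not tested. CD14, CD68 and CSF1R carried all of these reads.

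The other calcineurin subunits, from a list made after the values were seen, were counted in both groups. PPP3CA, the alpha catalytic subunit, had 14, 7 and 6 reads in NC and 40, 54 and 46 in Si-LIPG libraries (log2 fold change 0.98, SE 0.61, adjusted p = 0.401). The regulatory subunit PPP3R1 had 4, 14 and 5 against 14, 75 and 115 reads (log2 fold change 1.80, SE 0.65, adjusted p = 0.117). Neither passed edgeR's quasi-likelihood test at an adjusted p of 0.05, although the raw counts of the groups did not overlap for PPP3CA. Such raw counts, all higher in Si-LIPG, were found in 29.9% of the 14848 genes with a count and in 50% of the 6574 tested, so they were common in these libraries. PPP3CC had 0, 2 and 10 against 7, 11 and 10 reads and was too low to test.

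The group named gene expression in the nucleus held 11 members, with 17.2% of the reads. It was drawn broadly and includes TTI1 and PARP10. The zinc finger proteins ZNF644 and HIVEP3 had 14, 22 and 20 reads and 12, 17 and 22 reads. The zinc finger repressor ZBTB10 had 20, 8 and 10. POLR2H, a subunit shared by the nuclear RNA polymerases, had 14, 11 and 9 reads. EXOSC6, a core subunit of the RNA exosome that trims and degrades RNA, had 10, 9 and 8 reads. ATF3, a bZIP transcription factor induced by stress, had 8, 14 and 9 reads. None of these 3 was highest in Si-LIPG library 3, whereas C1orf131, a nucleolar protein (10, 10 and 22), and TTI1, of the complex that stabilises PI3K-like kinases (6, 7 and 18), were highest in library 3. PARP10, an ADP-ribosyltransferase, had 9, 10 and 6 reads, RCCD1, a partner of the histone demethylase KDM8, had 10, 7 and 5, and ATXN7L3B, a relative of a SAGA complex subunit, had 6, 7 and 11.

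ATF4 and DDIT3 (CHOP), stress factors of the same pathway as ATF3, were counted in both groups. ATF4 had 36, 195 and 242 reads in NC and 305, 560 and 539 in Si-LIPG libraries (log2 fold change 0.48, SE 0.39, adjusted p = 0.543). DDIT3 had 2, 24 and 29 against 53, 42 and 55 reads (log2 fold change 0.41, SE 0.55, adjusted p = 0.740). Neither passed the edgeR test, and in both NC library 1 was the lowest of the 6 libraries.

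The ER, lipid and endomembrane group held 10 members and 18.6% of the reads. DPY19L1, a C-mannosyltransferase of the ER, had 13, 36 and 50 reads, the largest sum (99) of the 62 genes. FITM2, an ER protein needed for lipid droplet formation, had 24, 18 and 9 reads, so the order of the libraries was opposite to that of DPY19L1. DPM3, the small subunit of dolichol-phosphate mannose synthase, had 12, 8 and 24 reads. C2CD2L, which transfers phosphoinositides between the ER and the plasma membrane, had 14, 14 and 15 reads, and CLN8, which exports lysosomal enzymes from the ER, had 10, 11 and 11. Both were nearly even over the Si-LIPG libraries. The phosphoinositide phosphatase FIG4 had 6, 14 and 15 reads, SCCPDH, a saccharopine dehydrogenase-like protein, had 8, 15 and 8, and TMEM241, a putative nucleotide sugar transporter, had 5, 16 and 8. CYP2R1, the vitamin D 25-hydroxylase, had 5, 7 and 12 reads, and BLOC1S2, a subunit of the BLOC-1 complex of lysosome-related organelles, had 5, 5 and 14.

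Other genes of lipid droplet formation ranged from sparse to well counted. FITM1 had 6, 0 and 8 reads in NC and 2, 0 and 12 in Si-LIPG libraries. DGAT2, which makes triacylglycerol, had 0, 0 and 0 against 0, 8 and 10 reads and missed the rule because of Si-LIPG library 1. PLIN2, a droplet coat protein, had 5, 78 and 26 against 42, 191 and 40 reads (log2 fold change 0.19, SE 0.66, adjusted p = 0.909 by edgeR). The groups overlapped in PLIN2 and FITM1. PNPLA2, the adipose triglyceride lipase, was well counted, with 94, 109 and 157 against 122, 112 and 107 reads. In the mannose route, DPM1, the catalytic partner of DPM3, had 51, 63 and 22 against 45, 52 and 44 reads (log2 fold change -1.29, SE 0.49, adjusted p = 0.132 by edgeR), and DPY19L3 had 3, 4 and 13 against 6, 38 and 52 (log2 fold change 0.99, SE 0.76, adjusted p = 0.517 by edgeR). The enzyme complex of DPM1 and DPM3 was therefore counted in all 6 libraries through DPM1 and in 3 through DPM3.

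The mitochondrion was the site of 6 members with 10.5% of the reads, and 3 of them belong to the metabolism of propionate and succinyl-CoA. PCCA, the alpha subunit of propionyl-CoA carboxylase, had 14, 25 and 31 reads. SUCLA2, the ADP-forming beta subunit of succinyl-CoA ligase, had 14, 24 and 16 reads, and ACSS3, a mitochondrial acyl-CoA synthetase of short chains, had 8, 7 and 8. The other 3 were MRPL12 of the mitochondrial ribosome (16, 10 and 8), the ATP synthase coupling factor DMAC2L (8, 8 and 10) and LYRM2 of complex I assembly (6, 7 and 13).

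The partner subunits of these enzymes were counted in both groups. PCCB, the beta subunit of propionyl-CoA carboxylase, had 15, 17 and 19 reads in NC and 35, 64 and 81 in Si-LIPG libraries (log2 fold change 0.50, SE 0.44, adjusted p = 0.586). SUCLG2, the GDP-forming alternative to SUCLA2, had 8, 14 and 4 against 30, 75 and 50 reads (log2 fold change 1.25, SE 0.59, adjusted p = 0.248). SUCLG1, the alpha subunit that pairs with either, had 18, 45 and 12 against 29, 38 and 69 reads (log2 fold change -0.45, SE 0.52, adjusted p = 0.691). The raw counts of PCCB and SUCLG2 did not overlap between the groups and those of SUCLG1 did, but none of the 3 passed the edgeR test after TMM normalization. Counts all higher in Si-LIPG were found in 50% of the genes tested by edgeR and in 29.9% of those with a count, so this was common. Of 6 genes of this route that were tested and are not members, 0 were called in either direction by edgeR, DESeq2 called 0 of the 5 it could adjust, and 1 had an unadjusted p under 0.05 in edgeR, ECHDC1, an enzyme that removes faulty acyl-CoA products (32, 16 and 73 against 41, 42 and 49 reads).

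The cytoskeleton, muscle and cell surface group held 9 members with 12.8% of the reads. TBCEL, which destabilises tubulin, had 11, 20 and 11 reads, the tubulin polyglutamylase TTLL7 had 6, 11 and 16, and the centrosomal protein CEP78 had 12, 8 and 6. The metalloreductase STEAP2 had 16, 8 and 5 reads and the magnesium channel TRPM6 10, 7 and 11. The adhesion proteins PCDH9, a protocadherin, and GLDN, gliomedin, had 6, 6 and 22 reads and 7, 8 and 12 reads. STEAP2 and CEP78 were thus highest in library 1 and PCDH9 in library 3.

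XIRP2, an actin-binding protein of striated muscle, had 8, 9 and 24 reads, and CAVIN4, a muscle caveolar protein, had 7, 5 and 11. All 7 myogenic markers found in the files were counted in at least 1 library. Their summed level was 276, 400 and 389 CPM in NC and 509, 504 and 557 CPM in Si-LIPG libraries, without overlap. On TMM-adjusted sizes it was 455, 420 and 417 against 480, 390 and 414, and the groups overlapped. MYOD1, a myogenic transcription factor, had 7, 10 and 14 against 28, 71 and 36 reads, and DES, desmin, had 72, 100 and 76 against 176, 196 and 238. TNNT3, a fast troponin T, had 0, 8 and 44 against 22, 32 and 28 reads, MYOG, myogenin, had 0, 10 and 4 against 5, 6 and 11, and MYF5 had 0, 2 and 0 against 2, 1 and 1, so these 3 overlapped. PAX7, of muscle stem cells, had 0, 0 and 4 against 8, 12 and 22 reads, and MYH3, embryonic myosin, had 66, 111 and 132 against 199, 177 and 250. In raw counts, 4 of the 7 markers thus did not overlap between the groups. Raw counts all higher in Si-LIPG were found in 29.9% of all genes with a count and in 50% of those tested by edgeR. The part of myogenic cells in the counts of XIRP2 and CAVIN4 was not tested.

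The remaining named members were PUDP, a phosphatase of pseudouridine monophosphate (12, 10 and 8 reads), R3HCC1L, with R3H and coiled-coil domains (8, 8 and 12), the small membrane protein SMIM11A (6, 6 and 13) and TMEM101 described above. The 10 genes without a name held 15.1% of the reads. Among these, ENSCHIG00000017940 had 20, 28 and 19 reads, the largest lowest count (19) of the 62 genes, and ENSCHIG00000024173 had 10, 14 and 24.

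Scaled by gene length, the order of levels changed. The authors' FPKM values (counts divided by the length of the gene and by the counted reads of the library) averaged 1.13 to 53.6 over the Si-LIPG libraries, with a median of 6.08. DPM3, a gene of 279 bp in this scaling, was highest at 49.7, 29.2 and 81.8 FPKM (53.6 ± 26.5, SD, n = 3), followed by SMIM11A at 41.5 ± 16.7 and LYRM2 at 33.0 ± 11.5 FPKM. These neighbours did not differ beyond their spread. DPY19L1, first by reads, reached 5.15 ± 2.58 FPKM, and PCDH9 was lowest at 1.13 ± 0.833 FPKM. By group, median FPKM was highest for the mitochondrial members (12.1) and lowest for the cytoskeleton, muscle and cell surface members (3.80). The length behind these values ranged from 204 to 11259 bp, whereas the summed counts of the 62 genes ran only from 18 to 99 reads. Length therefore weighs heavily in this order, and the groups were made after the values were seen.

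**Figure D2:**
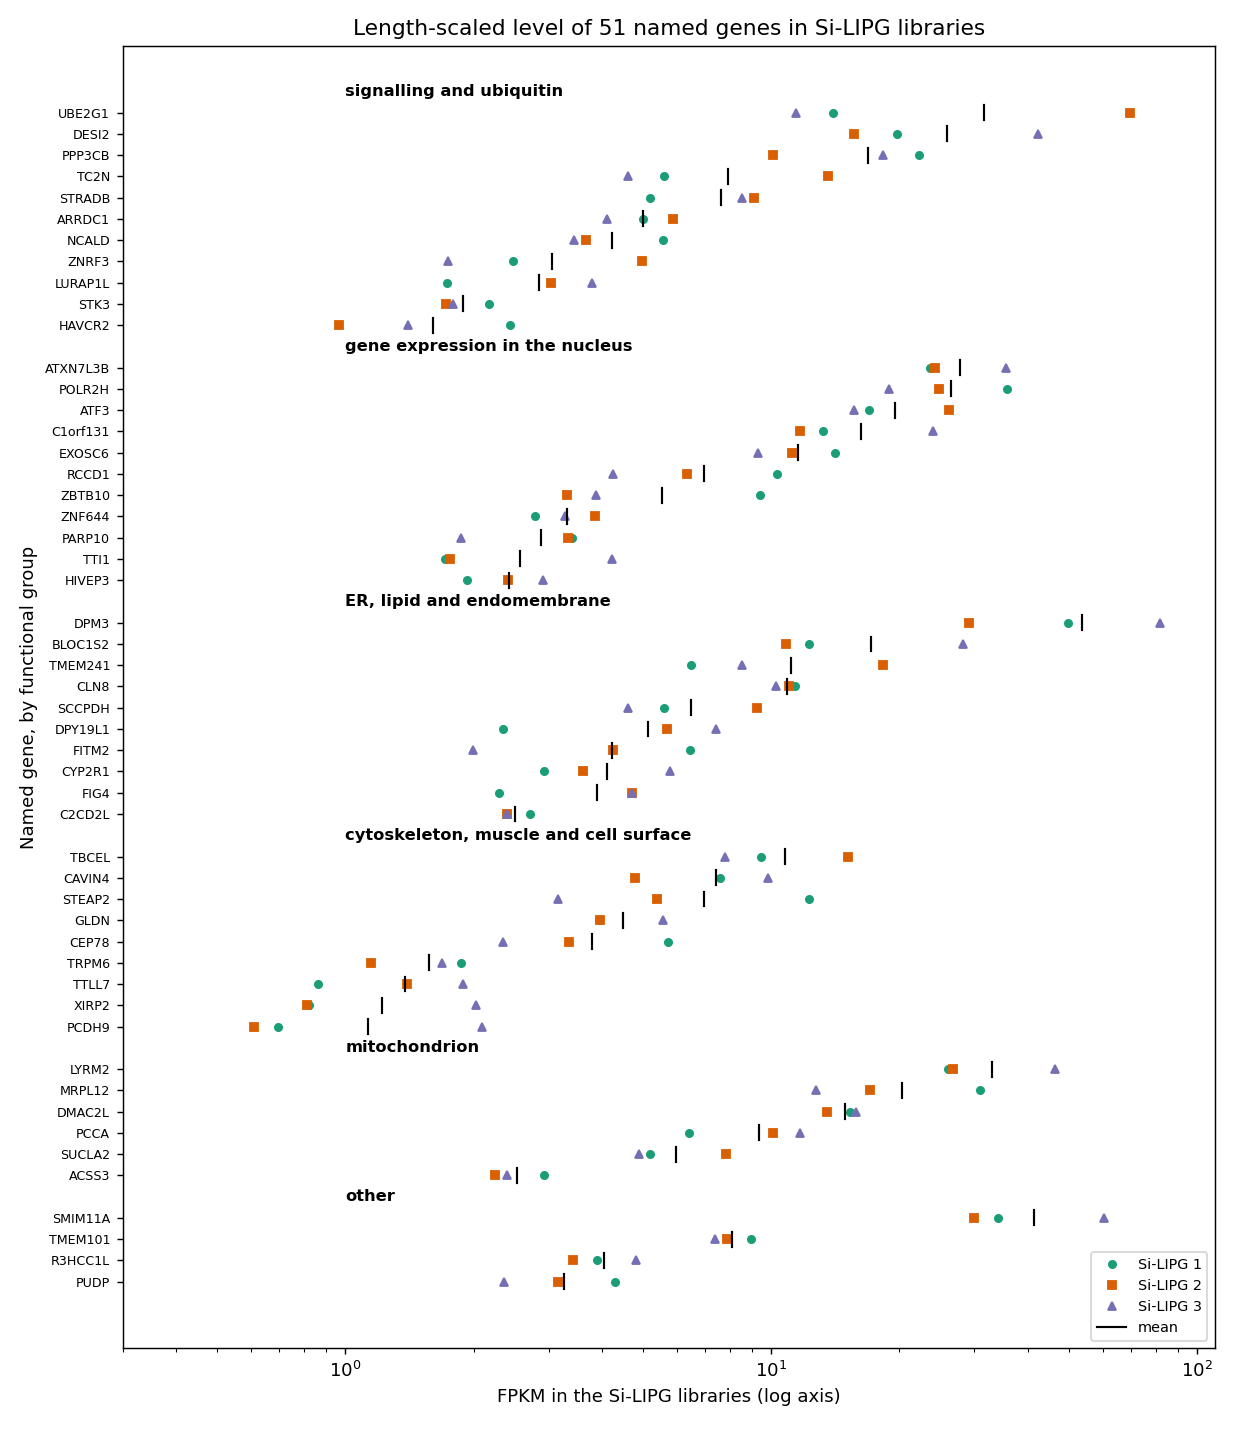
FPKM (log axis) of 51 of the 52 named genes in the 3 Si-LIPG libraries, by functional group, with 1 point per library and a bar at the mean. DPM3 has the highest mean (53.6 FPKM) and PCDH9 the lowest (1.13 FPKM), and the points of UBE2G1 and PCDH9 spread widely while those of C2CD2L and CLN8 lie close together.

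The zeros were set against the depth of the NC libraries on 3 scales. The Si-LIPG libraries held 1.58 times the counted reads of the NC libraries, 2.33 times after TMM adjustment and 0.862 times when all reads in the files are used. At the pooled Si-LIPG rate of each gene, the NC libraries together would have held 11.4 to 62.5 reads (median 19.6) on counted reads. The same expectation was 7.74 to 42.6 reads (median 13.3) on TMM-adjusted sizes and 20.9 to 115 (median 35.9) on all reads. A count of 0 allows up to 3 reads, for counting error only, and 0 of the 62 genes had an expected NC sum at or under 3 on any of these scales. That was fixed by the choice, since a gene with at least 5 reads in each of 3 Si-LIPG libraries could not fall there at these depths, so nothing is read from it. The expectations show the size of the gap only for genes chosen to have one.

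**Figure D3:**
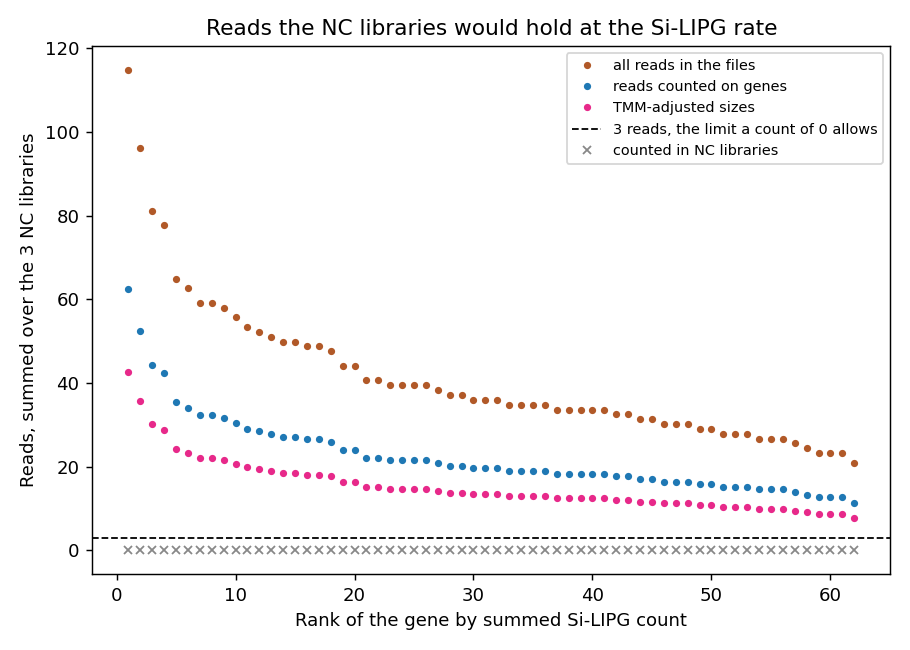
Reads expected over the 3 NC libraries at each gene's Si-LIPG rate, by rank of the gene, on all reads, counted reads and TMM-adjusted sizes, with the 0 reads that were counted (crosses) and the 3 reads that a count of 0 allows (dashed line). The expected sums, which the choice of the genes keeps above the line, run from 7.74 reads at the lowest on TMM-adjusted sizes to 115 at the highest on all reads.

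In single libraries the depth was closer to the limit. In NC library 1, the shallowest after TMM adjustment, the expected count was at or under 3 reads for 36 of the 62 genes (median 2.74). In NC library 2 this held for 1 gene and in NC library 3 for 0, with medians of 4.94 and 5.65 reads. On counted reads alone, 0 genes were at or under 3 in any NC library, with medians of 5.61, 6.44 and 7.53. On the TMM scale, the zero in NC library 1 was thus within the limit of counting for those 36 genes.

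Against 3 reads over the NC group, the summed level was at least 3.79-fold to 20.8-fold higher in Si-LIPG per counted read, with a median bound of 6.53-fold. These bounds cover counting error only and are built from the counts that chose the genes, so their size is partly fixed by the choice. Against 3 reads in NC library 1 alone, where the expected counts were lowest, the median was 1.87-fold. With a limit of 6 reads over the group it was 3.26-fold, and without NC library 3 it was 4.02-fold. Per counted read, DPY19L1 had the largest bound, 20.8-fold against 3 reads over the group and 5.97-fold against 3 reads in NC library 1 alone. PPP3CB followed at 17.5-fold and 5.01-fold, and TMEM101 had the smallest group bound, 3.79-fold. On TMM-adjusted sizes the group bounds ran from 2.58-fold to 14.2-fold (median 4.44), and on all reads from 6.96-fold to 38.3-fold (median 11.98). Against 3 reads in NC library 1 alone, the bounds on TMM-adjusted sizes ran from 0.531-fold for TMEM101 to 2.92-fold for DPY19L1, with a median of 0.914. For 36 of the 62 genes this bound was below 1, so that library by itself bounds no increase for them. Where the Si-LIPG counts were first scaled down to the mean counted reads of the NC libraries, 20 of the 62 genes still had at least 5 reads in every Si-LIPG library. Among these were DPY19L1, PPP3CB, PCCA, SUCLA2, FITM2, ZNF644, HIVEP3, XIRP2, POLR2H, ATF3 and STK3, whereas DPM3, UBE2G1, EXOSC6 and CAVIN4 were not.

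Genes with like counts in the Si-LIPG libraries give the background of these zeros. There were 3642 genes with at least 5 reads in every Si-LIPG library and a sum between 18 and 99, the range of the 62, and their NC sums had a median of 20 reads, with quartiles of 11 and 32. The 62 genes at 0 were 1.70% of these, 157 genes had an NC sum of 1 to 3 reads and 262 one of 4 to 6. The 62 genes thus lay next to genes with a few NC reads, with no gap between them. In the same 3642 genes, 27.8% were at 0 in NC library 1, 11.8% in NC library 2 and 9.14% in NC library 3. Their median NC sum was 0.585 of that expected from counted reads, 0.859 of that from TMM-adjusted sizes and 0.318 of that from all reads. These genes were selected on their Si-LIPG reads alone, and how far that moves these ratios was not tested. The 62 genes had a median length of 1742.5 bp against 1902 bp in the 3642, a median of 31 against 54 Si-LIPG reads, and a median FPKM of 6.08 against 9.30. Their coefficient of variation was similar, with medians of 34.0% and 38.1%.

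The count of such genes depended on the minimum. At 1 read in every Si-LIPG library there were 320 genes, at 3 reads 125, at 5 reads 62 and at 10 reads 13. The mirrored counts were 17, 0, 0 and 0. The 17 genes had reads in every NC library and in no Si-LIPG library. By NC sum, the leading named ones were COMTD1 (8, 2 and 6 NC reads), ABCC2 (6, 8 and 1), CCL17 (1, 12 and 2), PBX2 (1, 9 and 2) and PDSS2 (1, 6 and 4). A gene without a name had 1, 8 and 4 reads and ranked above PBX2. Over all genes, 1996 were counted only in Si-LIPG and 798 only in NC libraries. Of 2520 genes with at least 5 reads in every NC library and an NC sum in the same range, the lowest Si-LIPG sum was 1 read, for MFSD13A (8, 8 and 7 against 1, 0 and 0).

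**Figure D4:**
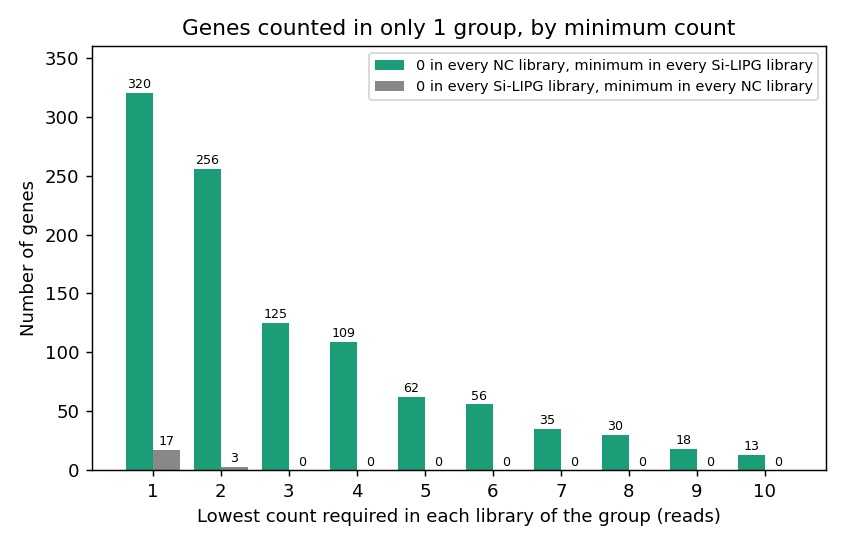
Number of genes with 0 reads in every library of one group and at least the stated number of reads (horizontal axis) in every library of the other. The bars for genes counted in Si-LIPG fall from 320 at 1 read to 13 at 10 reads, and those for genes counted in NC fall from 17 at 1 read to 0 at 3 reads and above.

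Single libraries decided much of the membership. Without NC library 1 the rule gave 104 genes, of which 62 (59.6%) were at 0 in that library. Without NC library 2 it gave 185, of which 33.5% were at 0 there, and without NC library 3 it gave 229, of which 27.1% were at 0 and 81 had at least 5 reads there, up to 30. Most genes chosen without NC library 2 or 3 were thus counted in the library left out. Without Si-LIPG library 1 the rule gave 160 genes, of which 37 were at 0 and 62 (38.8%) had at least 5 reads in that library. Without Si-LIPG library 2 it gave 90 genes and without Si-LIPG library 3 it gave 91, of which 6.67% and 8.79% were at 0 and 68.9% and 68.1% had at least 5 reads in the library left out.

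Applied to 2 NC and 2 Si-LIPG libraries, the rule leaves a pair of libraries that the choice did not use. Over the 9 such pairs, 142 to 470 genes were chosen, and 54.9% to 87.3% of them had the higher CPM in the Si-LIPG library left out. Among other genes with like counts in the same Si-LIPG libraries, the share was 57.0% to 75.6%. On TMM-adjusted sizes the shares were 54.3% to 80.3% and 51.5% to 59.0%, and on all reads 56.4% to 91.8% and 63.5% to 91.7%. The chosen genes thus exceeded the others in each of the 9 pairs on TMM-adjusted sizes, in 7 on counted reads and in 3 on all reads. Genes at 0 in both libraries left out were counted here as not higher, and among the chosen genes these were 37 in each pair with Si-LIPG library 1, 6 with library 2 and 8 with library 3. With such genes set aside among the chosen and the others alike, the chosen exceeded the others in each of the 9 pairs on TMM-adjusted sizes and on counted reads and in 5 on all reads. The tally on counted reads and on all reads thus depended on how these zeros were treated. All 62 genes were in every chosen set and were higher in every pair by the rule, and the other genes held none of them. The excess is thus partly fixed by the choice. The pairs also share libraries, so the shares are a description.

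**Figure D5:**
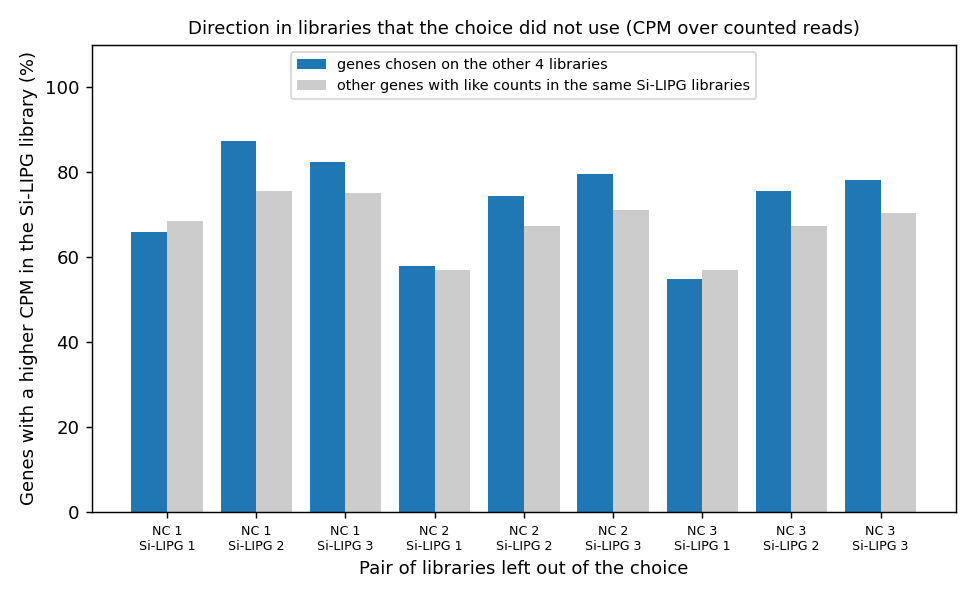
Share of genes (%) with a higher CPM, over counted reads, in the Si-LIPG library than in the NC library of each pair left out of the choice. Blue bars are genes chosen on the other 4 libraries and grey bars are other genes with like counts; the pairs with Si-LIPG library 1 have the lowest shares of chosen genes (54.9% to 66.0%). Genes at 0 in both libraries of a pair count as not higher.

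Even counts outnumbered odd ones in these files, in every library. Of counts from 1 to 20, 63.4% to 67.6% were even, and a count of 2 was more frequent than 1 or 3 in all 6. In the 62 genes, 50 (80.6%), 39 (62.9%) and 45 (72.6%) of the Si-LIPG counts were even, against 62.7%, 61.5% and 60.0% in the 3642 genes of like counts. The cause was not tested. With all counts halved, the rule kept 13 genes, by arithmetic the same as those with at least 10 reads in every Si-LIPG library.

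In the RefSeq annotation of the assembly ARS1.2, 48 of the 62 genes were found once by symbol, and all 48 are protein coding. Another gene overlapped or lay within 1 kb of 17 of them (35.4%), against 1395 of 2790 (50.0%) other genes with like counts, and 8 had an overlapping gene. STRADB overlaps TRAK2, which had 0, 10 and 10 reads in NC and 14, 42 and 20 in Si-LIPG libraries (log2 fold change 0.82, SE 0.83, adjusted p = 0.646 by edgeR). SLC50A1, next to DPM3, had 0, 2 and 0 against 16, 12 and 8 reads, and MSS51, next to PPP3CB, had 10, 0 and 8 against 2, 0 and 0. Neighbours thus lay in both directions in raw counts. The strand setting of the counting is not given in the sources used here. Reads from an overlapping gene on the other strand can therefore not be told apart from a gene's own.

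Genes outside the 62 were compared in edgeR over the 6574 genes that passed its filter on low counts, of which 0.958% (63) were higher and 5.54% (364) lower in Si-LIPG at an adjusted p under 0.05. At an unadjusted p under 0.05, 7.83% (515) were higher and 12.9% (846) lower, and the counts at that p below are to be read against these shares. Of the 62 genes, 9 passed that filter and 53 did not. The 9 are part of these totals, but no test of a single member is given. These calls rest on single libraries and on the scaling. Without NC library 1, NC library 2, Si-LIPG library 2 or Si-LIPG library 3, 0 genes were called, with 1308, 1611, 888 and 871 genes at an unadjusted p under 0.05. With all reads as library sizes 916 were higher and 0 lower, and the median log2 fold change of all tested genes moved from 0.16 to 1.59. With counted reads as library sizes 93 were higher and 7 lower (median 0.71). Of 21 gene lists and name families, 4 held any of the 62 genes. The cilium and centrosome list held CEP78, and of its 22 other tested genes 0 were higher and 1 lower, TUBE1 (epsilon tubulin, log2 fold change -1.55, SE 0.41, adjusted p = 0.0414), with 0 higher and 4 lower at an unadjusted p under 0.05 and the same counts, 0 and 1, by DESeq2. The list of ubiquitin ligase receptors and E2 enzymes held UBE2G1, and of 21 others 0 were called in either direction, with 3 higher and 0 lower at an unadjusted p under 0.05 and 0 called by DESeq2. The C2H2 zinc finger family held ZBTB10 and ZNF644 among 300 genes, and of 74 others tested 0 were higher and 5 lower, led by ZSCAN29 (log2 fold change -1.73, SE 0.37, adjusted p = 0.0396), ZNF687, ZBTB48 and ZNF276. None was higher by DESeq2 or at an unadjusted p under 0.05 either, with 10 lower by DESeq2 and 15 lower at that p. The TMEM family held TMEM101 and TMEM241 among 205 genes, and of 44 others tested 0 were higher and 4 lower, TMEM179B (log2 fold change -2.21, SE 0.57, adjusted p = 0.0400), TMEM120A, TMEM175 and TMEM223. At an unadjusted p under 0.05, 5 were higher and 9 lower, and DESeq2 called 0 higher and 5 lower. The other 17 lists and families held none of the 62, and of their 314 tested genes 3 were higher and 21 lower (36 and 53 at an unadjusted p under 0.05). DESeq2 called 5 higher and 36 lower. Among the 17 was the list of lipases and fatty acid handling, with 22 tested genes. By edgeR, its ELOVL6, a fatty acid elongase, was higher (log2 fold change 2.01, SE 0.55, adjusted p = 0.0446) and PNPLA2, the adipose triglyceride lipase, lower (log2 fold change -1.28, SE 0.34, adjusted p = 0.0400). Over 7 further lists around the members' partners, made after the values were seen, 0 of 52 other tested genes were higher and 5 lower, with 2 higher and 9 lower at an unadjusted p under 0.05, and DESeq2 called 0 higher and 6 lower. The 5 were PNPLA2, the RNA polymerase subunit POLR2B (log2 fold change -1.36, SE 0.38, adjusted p = 0.0478) and the exosome genes EXOSC3 (-1.56, SE 0.34, adjusted p = 0.0396), EXOSC5 (-1.78, SE 0.48, adjusted p = 0.0415) and DIS3 (-1.77, SE 0.39, adjusted p = 0.0396). In raw counts DIS3 had 158, 112 and 142 reads in NC and 93, 115 and 101 in Si-LIPG libraries, and EXOSC3 had 98, 109 and 108 against 74, 94 and 95. Raw counts overlapped between the groups for POLR2B (447, 324 and 380 against 354, 409 and 398), EXOSC5 (105, 74 and 94 against 93, 52 and 46), DIS3, PNPLA2 and TUBE1, and not for EXOSC3. Raw counts that were all lower in Si-LIPG were found in 1.04% of the genes with a count and 1.69% of the tested genes. Of the 12 tested partners of POLR2H and EXOSC6, 4 were thus lower and 8 were not called, among them POLR2A (0.31, SE 0.30, adjusted p = 0.624) and POLR2G (0.44, SE 0.62, adjusted p = 0.750). Of 2 tested neighbours of the 62 genes, 0 were higher and 1 was lower, the chloride channel CLCN2 next to POLR2H (170, 146 and 121 against 136, 130 and 125 reads, which overlapped, log2 fold change -1.51, SE 0.40, adjusted p = 0.0412).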

How the data were processed

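Poly(A) RNA of goat intramuscular preadipocytes was sequenced in 6 libraries, 3 NC and 3 Si-LIPG by their titles. The authors deposited raw counts of reads per gene for 27271 genes, named by Ensembl identifiers, in 1 file per library, and FPKM values of the same genes with gene names in 1 table. The submitters' processing notes name fastp, HISAT2, SAMtools and HTSeq, without versions; the genome build and the strand setting are not given in the sources used here. The 5 rows naming no gene, with 97.1% to 99.0% of the reads of a library, entered no library size and no test. FPKM values were a constant multiple of the counts of each of 14848 counted genes within each library, within a relative tolerance of 1e-06, which gave the gene lengths used.

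The genes and lists were chosen with earlier results of these data known. Named by rule were the 40 named members with the largest summed Si-LIPG count, those at the thresholds and the 5 leading named genes of the mirrored pattern. The rule also named called neighbours, and called genes, at most 4 a list, of the lists that hold a member, concern lipases or were added. Called genes of the other lists are given as counts. The other 12 named members, and partners and neighbours that were not called, were named after their values were seen. The lists were 11 gene lists and 10 name families, with 7 lists and the functional groups added after the values were seen. Expected NC reads were the pooled Si-LIPG rate times the reads of a library. The genes passing its filter on low counts, 9 of the 62 among them, were fitted in R 4.3.3 with edgeR 4.0.16 (filterByExpr, TMM, quasi-likelihood test, no covariates, Benjamini-Hochberg adjustment over 6574 genes). Tests of single genes are given only for the other genes, whereas the totals over all tested genes include the 9. DESeq2 1.42.0 was an alternative, and the edgeR script was tested on simulated data. Replicate libraries differed beyond sampling noise, with 4.34 to 16.6 as the chi-square over its degrees of freedom, and each was kept as 1 sample. Alternatives were other count limits, scalings and filters, a replicate block and leaving out each library. The authors' own comparisons were not used. Among the named members, 1 gene is not reported here.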

Additional observations from a re-analysis of the deposited data

How the results depend on the processing

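The number of genes counted only in Si-LIPG was 62 as chosen, 99 with up to 1 read in NC, 125 with at least 3 and 13 with at least 10 reads in Si-LIPG, 20 with Si-LIPG counts scaled to the counted reads of NC and 74 with scaling to all reads. Leaving out 1 library gave 90 to 229. The mirrored rule gave 0, 2 with up to 1 read in Si-LIPG, and 0 to 1 with 1 library left out. The median lower bound of the fold, 6.53, was 11.98 on all reads and 4.44 on TMM-adjusted sizes. It was 1.87 against 3 reads in NC library 1 alone and 4.02 to 6.90 with 1 library left out. After seeing the data, halved counts (13 genes) and a limit of 6 reads (median bound 3.26) were added because even counts were frequent. Both follow by arithmetic, from the rule with at least 10 reads and from the main bound, and add no separate check. Genes called by edgeR, 63 higher and 364 lower, were 916 and 0 on all reads, 93 and 7 on counted reads, 143 and 480 without the filter, 82 and 538 by DESeq2, and 0 to 88 and 0 to 575 with 1 library left out. With the replicate block they were 267 and 658, but the numbers were not taken as pairing the libraries. Same-numbered libraries correlated in their deviations at 0.210, 0.0639 and 0.105. NC library 1 was lower with Si-LIPG libraries 2 and 3 (-0.119 and -0.149). NC library 3 was lower with Si-LIPG libraries 1 and 2 (-0.154 and 0.0910). NC library 2, however, correlated better with Si-LIPG library 3 (0.0890) than with library 2. Leaving out a library asks less of each gene, since the rule then holds for 5 libraries; the cause of the other changes was not tested. The limit of 3 reads is taken over the NC group, except where a single NC library is named, and covers counting error only.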
